A study of Homo sapiens with 4 samples.

Results

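The genes of the respiratory chain and ATP synthase were described across the 4 RNA-seq libraries of this series. Members were the rows of the deposited count table whose Ensembl ID maps to a protein-coding symbol for a subunit of complexes I to V. The symbols began with NDUFA, NDUFB, NDUFC, NDUFS, NDUFV, UQCR, COX4 to COX8 or ATP5, or were SDHA to SDHD, CYC1, or the MT-ND, MT-CO, MT-ATP and MT-CYB genes. Assembly factors and rows annotated as pseudogenes were left out. This gave 104 members of 78932 gene rows, 91 encoded in the nucleus and 13 on mitochondrial DNA. The 91 include rows that are annotated as protein-coding but are not standard subunit genes. These are the retrocopies UQCRHL and ATP5MGL and the readthrough rows ATP5MF-PTCD1 and NDUFC2-KCTD14. The cells were RPMI 8226, an established human multiple myeloma line. In the LINC01432 LNA group (n = 2), cells had received a locked nucleic acid antisense oligonucleotide against the long non-coding RNA LINC01432 at 50 nM, and in the control LNA group (n = 2) a control oligonucleotide whose dose is not stated separately. RNA was taken at 72 h. The libraries share 1 cell line, and no label says that cultures were grown separately. The p-values below therefore reflect how far these libraries spread, and that spread may be technical. The labels name both poly(A) selection and enzymatic removal of ribosomal RNA as the library preparation, and which was used cannot be told apart from them.

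LINC01432 LNA libraries 1 and 2 contained 20873393 and 26185342 counts, against 29161298 and 24493148 counts in control LNA libraries 1 and 2. LINC01432 itself (ENSG00000234435, GRCh38 chr20:22054090-22074654) had 8.98 and 9.88 CPM (counts scaled to a common library size) in LINC01432 LNA libraries 1 and 2, against 20.5 and 17.9 CPM in control LNA libraries 1 and 2. The log2 fold change of -1.02 (SE 0.11) had an adjusted p of 0.000228 by edgeR's quasi-likelihood test with Benjamini-Hochberg adjustment over all 18680 genes tested, which left 49.2% of the control level. All 10 plasma cell markers examined were detected, with IRF4 at 768 to 804 CPM in LINC01432 LNA libraries and 777 to 778 CPM in control LNA libraries. Of 11 T, NK and myeloid markers, 6 had at most 3 counts in every library, among them CD2 and LYZ. Of 4 epithelial markers, EPCAM and KRT18 were detected in every library at 973 counts or more. KRT8 had 56 to 79 counts, and CDH1 had 7 to 15 counts, too few to be tested. Among the 10 plasma cell markers CD38 was called higher and TNFRSF17 and XBP1 lower (30% called, against 11.9% of all genes tested). Among the 20 markers of other cell types only COL1A1 was called. It had 3.44 and 4.19 CPM with LINC01432 LNA, against 1.82 and 2.44 CPM with control LNA. Most of those 20 had too few counts to be tested and so could not be called. The test covered 3 of 4 epithelial markers, 2 of 6 for T and NK cells, 2 of 5 myeloid markers and 2 of 5 in the list that holds COL1A1. The part of the marker genes in the results below was not tested.

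Mitochondria make most of a cell's ATP by passing electrons from NADH through complex I, or from succinate through complex II, to coenzyme Q, complex III, cytochrome c and complex IV. Complexes I, III and IV pump protons across the inner membrane, and complex V, the ATP synthase, makes ATP as they flow back. Complex II is built from nuclear genes alone, whereas the other complexes combine nuclear-encoded subunits with subunits made inside the mitochondrion from its own DNA, so the RNAs of both genomes contribute to each of them.

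The summed RNA of neither genome set the groups apart, but the LINC01432 LNA libraries differed from each other. The 13 mitochondrial mRNAs summed to 26017 and 34658 CPM in LINC01432 LNA libraries 1 and 2, against 29792 and 29178 CPM in control LNA libraries 1 and 2. LINC01432 LNA library 1 was the lowest and library 2 the highest of the 4, with the controls close together between them. The mitochondrial mRNAs took 3.01% ± 0.473 of all counts with LINC01432 LNA and 2.96% ± 0.0368 with control LNA (SD, n = 2 each). That difference of 0.0587 percentage points had a two-sided exact permutation p of 1, where the smallest p that 2 against 2 libraries allow is 0.333. The 91 nuclear members summed to 11258 and 12955 CPM in LINC01432 LNA libraries 1 and 2, against 11388 and 11722 CPM in control LNA libraries 1 and 2. The order of the libraries was the same at its ends, with LINC01432 LNA library 1 lowest and library 2 highest, over a narrower range. Per kilobase of coding sequence, summed mitochondrial counts over summed nuclear counts gave ratios of 1.17 and 1.35 in LINC01432 LNA libraries 1 and 2, against 1.31 and 1.24 in control LNA libraries 1 and 2. The groups overlapped, and their log2 ratios differed by -0.02 (exact permutation p of 1). In these bulk samples, fewer mitochondria or cells and less RNA per cell cannot be told apart.

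**Figure D1:**
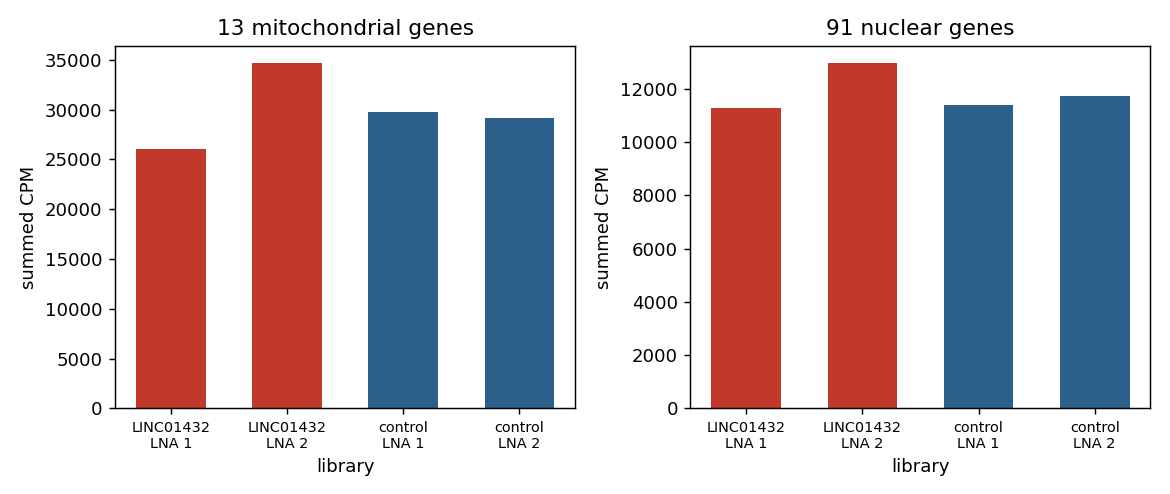
Summed CPM of the 13 mitochondrial genes (left) and of the 91 nuclear genes (right) in each library, with 1 bar per library and no error bar. The mitochondrial sums run from 26017 CPM in LINC01432 LNA library 1 to 34658 CPM in LINC01432 LNA library 2, and the control LNA sums of 29792 and 29178 CPM lie between them.

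Gene by gene, the mitochondrial mRNAs split the LINC01432 LNA libraries to either side of the controls. LINC01432 LNA library 1 lay below both control libraries for 12 of 13 genes, and library 2 lay above both for 11 of 13. Library 2 exceeded library 1 for 13 of 13 genes, by a median of 1.42-fold, whereas control LNA library 2 over library 1 had a median of 0.976-fold. Of all genes tested, 39.2% had LINC01432 LNA library 1 below both controls and 42.1% had library 2 above both. Among genes with a mean control level of at least 10 CPM, these shares were 55.3% and 41.9%. Relative to the control mean, the median mitochondrial gene stood at -0.25 in LINC01432 LNA library 1 and 0.20 in library 2 on the log2 scale, against 0.01 in each for the median of all genes. The mitochondrial ribosomal RNA MT-RNR1 had 678 and 2894 counts in LINC01432 LNA libraries 1 and 2, against 1280 and 152 counts in control LNA libraries 1 and 2. MT-RNR2 had 758 and 3384 counts with LINC01432 LNA, against 1486 and 244 counts with control LNA. The part of ribosomal RNA removal in the mRNA values was not tested.

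**Figure D2:**
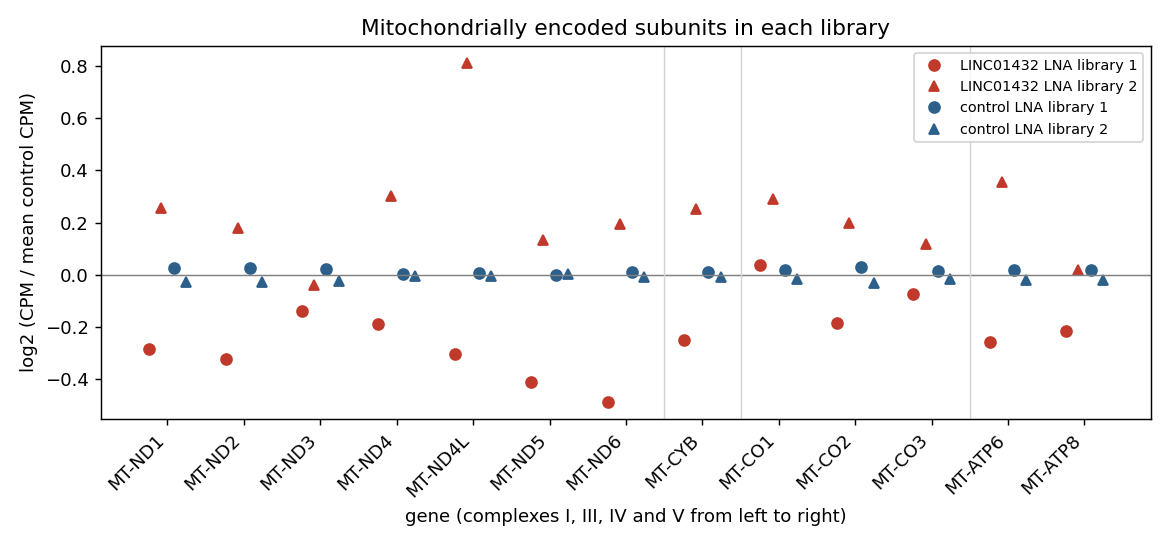
The log2 ratio of each library's CPM to the mean of the control LNA libraries, for the 13 mitochondrial genes grouped by complex, with 1 point per library. LINC01432 LNA library 1 (red circles) is below both controls for 12 genes and LINC01432 LNA library 2 (red triangles) above both for 11, with MT-ND4L reaching 0.81 in library 2.

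No mitochondrial member passed the test, and the median log2 fold change over all 13 was 0.02, against 0.01 over all genes tested. edgeR's quasi-likelihood test called 0 of 13 at an adjusted p under 0.05, against 11.9% of all genes tested in either direction, 0 of 13 had an unadjusted p under 0.05, and DESeq2 and limma-voom also called 0. Relative to the control mean, the median mitochondrial gene was at 0.20 in LINC01432 LNA library 2 and -0.25 in library 1 on the log2 scale. The direction thus depended on which library stood for the group. Both LINC01432 LNA libraries lay beyond both controls for 2 of 13 (15.4%), against 54.1% of all genes tested. These were MT-CO1, higher, and MT-ND3, lower.

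The mitochondrially encoded complex I genes make the membrane arm that houses the proton pump. The largest of them by CPM, MT-ND4, had 4185 and 5893 CPM in LINC01432 LNA libraries 1 and 2, against 4787 and 4767 CPM in control LNA libraries 1 and 2. MT-ND5 had 2536 and 3698 CPM with LINC01432 LNA, against 3369 and 3378 CPM with control LNA. In both genes the LINC01432 LNA libraries enclosed the controls, and the log2 fold changes were 0.08 (SE 0.14) for MT-ND4 and -0.11 (SE 0.14) for MT-ND5. MT-ND1 and MT-ND2 had the same order of libraries, with 1614 and 2348 CPM and 1379 and 1953 CPM with LINC01432 LNA, against 2003 and 1930 CPM and 1758 and 1696 CPM with control LNA. MT-ND6, the member transcribed from the opposite strand, had 205 and 329 CPM with LINC01432 LNA, against 289 and 286 CPM with control LNA. It was the gene in which LINC01432 LNA library 1 was farthest below the control mean, at -0.49 on the log2 scale. MT-ND3 had the closest pair of LINC01432 LNA values, 522 and 559 CPM, both below the 584 and 566 CPM of control LNA, with a log2 fold change of -0.09 (SE 0.08).

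MT-ND4L was the gene with the widest gap between the LINC01432 LNA libraries. It had 160.5 and 348 CPM in LINC01432 LNA libraries 1 and 2, against 199 and 197 CPM in control LNA libraries 1 and 2. Library 2 was thus above and library 1 below both controls, a gap of 1.12 on the log2 scale where the controls differed by 0.01. Its log2 fold change of 0.36 (SE 0.24) had an adjusted p of 0.403 by edgeR's quasi-likelihood test. The test called MT-ND4L higher when low-count genes were kept (adjusted p of 0.0023), although library 1 lay below both controls. MT-ND4L and MT-ND4 are carried on 1 bicistronic mRNA in which their reading frames overlap, yet the gap for MT-ND4 was 0.49. The MT-ND4L sequence (GRCh38 chrM:10470-10766, plus strand, from the GENCODE 29 transcripts) is shown because reads over its 3′ end can belong to either gene, and capitals mark the 7 bases shared with MT-ND4.
MT-ND4L: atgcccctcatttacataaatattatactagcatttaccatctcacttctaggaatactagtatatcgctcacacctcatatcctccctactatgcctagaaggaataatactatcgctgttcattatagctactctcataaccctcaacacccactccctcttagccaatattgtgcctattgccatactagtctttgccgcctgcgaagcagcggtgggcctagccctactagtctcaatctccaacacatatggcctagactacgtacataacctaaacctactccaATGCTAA

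In the other complexes library 2 of LINC01432 LNA was again above library 1, with smaller gaps in complex IV. MT-CYB, the cytochrome b of complex III, had 1492 and 2113 CPM with LINC01432 LNA, against 1785 and 1762 CPM with control LNA, a log2 fold change of 0.02 (SE 0.14). MT-CO1, which carries the haem and copper centre of complex IV, had 5240 and 6243 CPM with LINC01432 LNA, against 5172 and 5048 CPM with control LNA. It was the mitochondrial gene in which both LINC01432 LNA libraries exceeded both controls, with a log2 fold change of 0.17 (SE 0.11). MT-CO2 had 3449 and 4497 CPM with LINC01432 LNA, against 4006 and 3841 CPM with control LNA, and MT-CO3 had 3383 and 3866 CPM, against 3598 and 3523 CPM. Both enclosed the controls. MT-ATP6 and MT-ATP8 encode membrane subunits of complex V on overlapping frames. MT-ATP6 had 1777 and 2723 CPM with LINC01432 LNA, against 2156 and 2099.6 CPM with control LNA, and MT-ATP8 had 74.2 and 87.3 CPM, against 87.3 and 85.1 CPM. The gap between the LINC01432 LNA libraries was 0.62 for MT-ATP6 and 0.23 for MT-ATP8 on the log2 scale.

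The composition of mitochondrial mRNA differed in LINC01432 LNA library 1. Complex I genes made up 40.8% and 43.7% of mitochondrial mRNA counts in LINC01432 LNA libraries 1 and 2, against 43.6% and 43.9% in control LNA libraries 1 and 2. Complex IV genes made up 46.4% and 42.1% with LINC01432 LNA, against 42.9% and 42.5% with control LNA. Library 1 was thus apart from the other 3, which lay close together in both shares. The ratio of complex I to complex IV counts was 0.878 and 1.04 with LINC01432 LNA, against 1.02 and 1.03 with control LNA (exact permutation p of 1 for the group difference). Per kilobase, the order of levels was led by MT-CO2 at 5064 and 6604 CPM per kb with LINC01432 LNA, against 5882 and 5639.6 CPM per kb with control LNA. MT-ATP8 and MT-ND6 were at the low end, with MT-ND6 at 391 and 627 CPM per kb, against 551 and 544 CPM per kb. Nuclear copies of mitochondrial genes, which can share reads with them, filled 404 rows and held 3.19% and 3.30% as many counts as the mitochondrial members in LINC01432 LNA libraries 1 and 2, against 2.94% and 3.15% in control LNA libraries 1 and 2.

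Among the nuclear members, 83 of 91 passed the filter on low counts, and 5 of these changed: NDUFS7, NDUFB7 and NDUFS8 rose and SDHA and NDUFV3 fell. That is 6.02% of the nuclear members tested, against 11.9% of all genes tested, with 3 higher against a background of 7.5% and 2 lower against 4.37%. The median log2 fold change of the 83 was 0.01, equal to that of all genes at this precision, and 17 of the 83 had an unadjusted p under 0.05, against 4792 of 18680 over all genes. Both LINC01432 LNA libraries lay beyond both controls for 40 of 83 (48.2%), below the 54.1% of all genes. The nuclear members carried the difference between the LINC01432 LNA libraries too, since library 2 exceeded library 1 for 74 of 83 (89.2%), against 49.9% of all genes, with a median of 1.13-fold. Among all genes with a mean control level of at least 10 CPM, that share was 58.9%. Related lists showed the same order, in 100% of 14 tricarboxylic acid cycle genes and 81.8% of 77 mitochondrial ribosomal proteins, so it was not particular to the respiratory chain. The control LNA libraries also had library 2 above library 1 in most nuclear members, by a median of 1.04-fold. Control LNA library 1 exceeded library 2 for 16 of 83, against 9312 of 18680 over all genes. The number of calls depended on single libraries. More were called without LINC01432 LNA library 1, mostly higher, and more without LINC01432 LNA library 2, mostly lower. Fewer were called when either control LNA library was left out. The number called over all genes also moved with single libraries, so no shift particular to the members can be read from these fits.

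**Figure D3:**
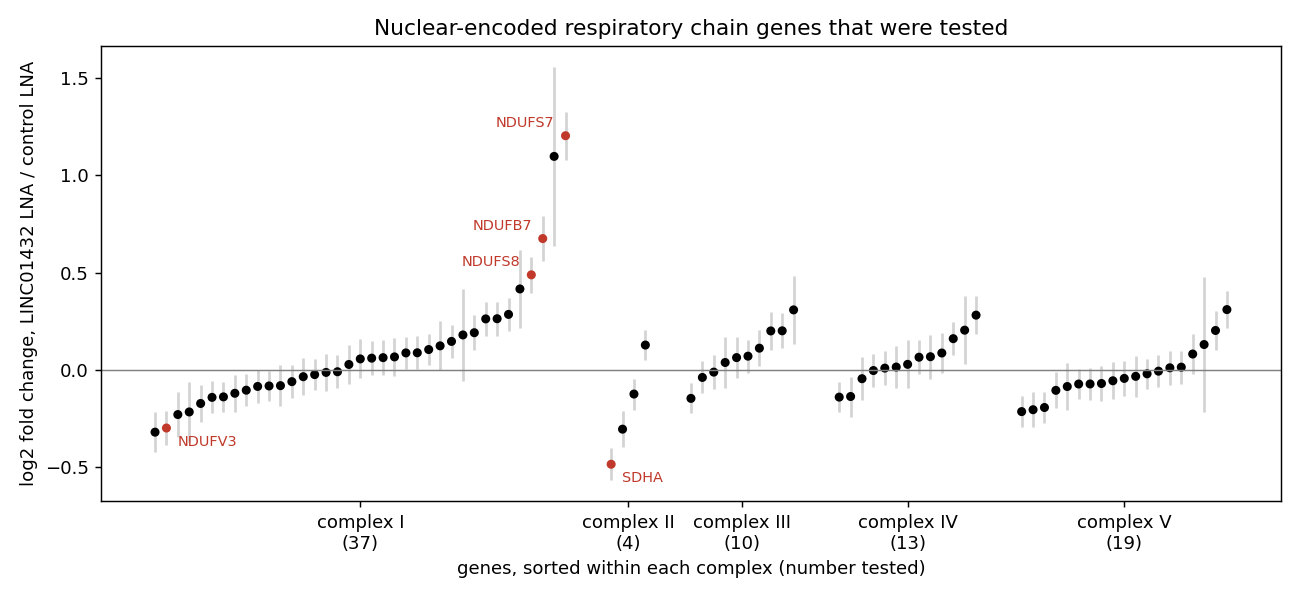
The log2 fold change of LINC01432 LNA over control LNA for the 83 nuclear members tested, sorted within each complex, with bars of 1 SE from edgeR. Red points are the 5 genes with an adjusted p under 0.05, of which NDUFS7 at 1.20 is the highest and SDHA at -0.49 the lowest, and most other genes lie near 0.

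NDUFS7, NDUFS8 and NDUFB7 belong to complex I, and NDUFS7 and NDUFS8 are core subunits that hold iron-sulphur clusters near the coenzyme Q site. NDUFS7 (ENSG00000115286, chr19:1383527-1395589) had 40.7 and 49.2 CPM in LINC01432 LNA libraries 1 and 2, against 17.3 and 21.9 CPM in control LNA libraries 1 and 2. The groups did not overlap, and NDUFS7 was 2.30-fold higher with LINC01432 LNA, a log2 fold change of 1.20 (SE 0.12) with an adjusted p of 0.000144 by edgeR's quasi-likelihood test. Its exons overlap an antisense gene, AC005329.1 (ENSG00000248015), on 49.1% of their bases. That gene had 13 and 23 counts with LINC01432 LNA, against 4 and 9 counts with control LNA, where NDUFS7 had 876 and 1245 counts, against 506 and 538 counts. The sources used here do not say whether counting used strand, so reads from the pair cannot be told apart.

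NDUFB7, an accessory subunit on the intermembrane side (ENSG00000099795, chr19:14566078-14572062), had 131 and 166 CPM with LINC01432 LNA, against 85.9 and 100.2 CPM with control LNA. Both LINC01432 LNA libraries were above both controls, with a log2 fold change of 0.67 (SE 0.12) and an adjusted p of 0.00319 by edgeR's quasi-likelihood test. After a correction for GC content, its log2 fold change was 0.22 with an adjusted p of 0.142, which ended the call. NDUFS8 (ENSG00000110717, chr11:68030617-68036644) had 263 and 309 CPM with LINC01432 LNA, against 197 and 211 CPM with control LNA. The log2 fold change of NDUFS8 was 0.49 (SE 0.09), with an adjusted p of 0.00601 by edgeR's quasi-likelihood test. After the GC correction it was 0.24 (adjusted p of 0.0492). Leaving out 1 control ended the call for NDUFS8, at 0.42 with an adjusted p of 0.243 without control LNA library 1 and 0.53 with an adjusted p of 0.0754 without control LNA library 2.

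SDHA, the flavoprotein that oxidises succinate in complex II (ENSG00000073578, chr5:218241-256700), fell. It had 38.3 and 40.8 CPM with LINC01432 LNA, against 53.7 and 57.3 CPM with control LNA, and the groups were well apart. The log2 fold change of SDHA was -0.49 (SE 0.08), with an adjusted p of 0.00324 by edgeR's quasi-likelihood test, and the GC correction left it at -0.50 (adjusted p of 0.00166). Without control LNA library 2 the log2 fold change was -0.45 and the adjusted p 0.0688. SDHA has 6 copy rows in the table that held 19.6 counts per 100 SDHA counts. The most abundant, SDHAP1, had 153 and 138 counts with LINC01432 LNA, against 184 and 143 counts with control LNA, so the split of reads between SDHA and its copies is uncertain. NDUFV3, an accessory subunit of the NADH-oxidising module of complex I (ENSG00000160194, chr21:42879644-42913304), had 50.7 and 51.7 CPM with LINC01432 LNA, against 59.0 and 67.3 CPM with control LNA. Its log2 fold change of -0.30 (SE 0.09) had an adjusted p of 0.0478 by edgeR's quasi-likelihood test. The call for NDUFV3 was at the edge, with an adjusted p of 0.0564 by DESeq2, and 0.149 and 0.637 by edgeR without control LNA library 1 (-0.41) and library 2 (-0.21).

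The promoters of the called genes with the smallest adjusted p-values are shown, with any matches to sequence patterns that were counted across the members. They come from RefSeq (GRCh38.p14), 250 bases before to 50 after each start, and the table matched 71 of 91 nuclear members. Capitals mark matches, on either strand, to CGCNTGCGC (the NRF1 pattern, where N is any base), CCGGAAGT (ETS factors), AAGATGGCG (YY1) or GGGGCGGGG (a GC box). The windows are chr5:218070-218369 for SDHA and chr19:1383657-1383956 for NDUFS7 (both plus strand), and chr19:14572017-14572316 for NDUFB7 (minus strand).
SDHA: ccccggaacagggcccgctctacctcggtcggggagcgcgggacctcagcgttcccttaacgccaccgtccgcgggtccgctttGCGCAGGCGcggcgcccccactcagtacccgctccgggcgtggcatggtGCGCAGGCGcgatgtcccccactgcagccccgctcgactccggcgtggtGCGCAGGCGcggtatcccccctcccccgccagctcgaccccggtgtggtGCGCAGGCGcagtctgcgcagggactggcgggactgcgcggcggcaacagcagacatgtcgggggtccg
NDUFS7: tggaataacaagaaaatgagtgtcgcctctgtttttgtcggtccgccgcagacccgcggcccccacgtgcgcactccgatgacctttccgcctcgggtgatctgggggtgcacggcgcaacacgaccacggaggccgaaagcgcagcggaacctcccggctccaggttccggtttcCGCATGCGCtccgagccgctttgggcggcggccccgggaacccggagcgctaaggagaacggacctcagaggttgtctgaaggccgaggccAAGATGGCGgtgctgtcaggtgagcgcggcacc
NDUFB7: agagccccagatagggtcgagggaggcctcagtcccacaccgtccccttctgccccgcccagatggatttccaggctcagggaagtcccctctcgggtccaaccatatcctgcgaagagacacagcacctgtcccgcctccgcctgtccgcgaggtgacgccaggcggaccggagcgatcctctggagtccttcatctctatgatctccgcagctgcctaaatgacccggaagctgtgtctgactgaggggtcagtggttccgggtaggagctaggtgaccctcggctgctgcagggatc

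The SDHA window held 4 matches to the NRF1 pattern, each 49 bases from the next. At least 4 matches, with overlapping matches counted separately, were found in 36 of 15843 protein-coding promoters (0.227%) and in 2 of the 71 members. The NDUFS7 window held 1 match to the NRF1 pattern and 1 to the YY1 pattern, and the NDUFB7 window held no match to the 4 patterns marked. Across all members with a promoter, the NRF1 pattern was in 23 of 71 windows (32.4%), against 1746 of 15843 protein-coding promoters. The ETS pattern was in 10 (14.1%), against 6.19%, and the YY1 pattern in 8 (11.3%), against 2.74%. The GC box was in 10 windows (14.1%), against 22.4%, and TATAAA in 7 (9.86%), against 9.63%. A match is a description of the letters and not evidence of binding. SDHD and UQCRFS1 also hold the NRF1 pattern, with log2 fold changes of -0.31 and 0.20 that did not pass the test.

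By complex, 4 of the 5 calls were in complex I and 1 was in complex II. Complex I had 37 nuclear members tested, of which 3 rose and 1 fell (10.8% called, against 11.9% of all genes), with a median of 0.06 on the log2 scale. Its 7 core subunits had 2 higher (28.6% called, against 11.9% of all genes) and a median of 0.19. Its 30 accessory subunits had 1 higher, 1 lower (6.67% called) and a median of 0.02. After the GC correction the medians were 0.03 for the core and -0.001 for the accessory subunits. NDUFS1 and NDUFV1, the other large core subunits of the electron entry arm, did not pass the test, with NDUFS1 at 107 and 109.6 CPM, against 119 and 120.3 CPM, and NDUFV1 at 437 and 507 CPM, against 408 and 419 CPM. NDUFC1 and NDUFC2 just missed the threshold in opposite directions, at 0.28 (adjusted p of 0.0529) and -0.32 (adjusted p of 0.0688). NDUFS5 had the highest level of complex I per kilobase, at a mean of 800.1 CPM per kb, with a log2 fold change of 0.07.

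Complex II showed 1 of 4 members lower, against 4.37% of all genes tested, and a median of -0.22. SDHD, a membrane anchor, had 25.4 and 22.5 CPM with LINC01432 LNA, against 29.6 and 29.5 CPM with control LNA, a log2 fold change of -0.31 (SE 0.09, adjusted p of 0.0535). SDHB, the iron-sulphur subunit, had 197 and 208 CPM with LINC01432 LNA, against 185 and 186 CPM with control LNA, a log2 fold change of 0.13 (SE 0.08, adjusted p of 0.347). SDHB lay above and SDHA, SDHC and SDHD below the controls in both LINC01432 LNA libraries. All 4 thus had groups that did not overlap, as did 54.1% of all genes tested. The share was 62.9% among genes with a mean control level of at least 10 CPM. Per kilobase of coding sequence, SDHB had the highest mean level of complex II at 231 CPM per kb and SDHA the lowest at 23.9 CPM per kb.

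Complexes III, IV and V had no call. edgeR's quasi-likelihood test called 0 of 10 in complex III, 0 of 13 in complex IV and 0 of 19 in complex V, with 1, 1 and 4 members at an unadjusted p under 0.05. DESeq2 called ATP5F1D alone among them (adjusted p of 0.0451). The medians were 0.07, 0.03 and -0.04 on the log2 scale. CYC1, the cytochrome c1 of complex III, had 430.5 and 497 CPM with LINC01432 LNA, against 409 and 398 CPM with control LNA, and UQCRFS1, the Rieske protein, had 48.7 and 57.4 CPM, against 44.1 and 48.5 CPM. Both had groups that did not overlap and log2 fold changes of 0.20, with adjusted p of 0.189 and 0.228. After the GC correction CYC1 was at -0.11 and UQCRFS1 at 0.26 on the log2 scale. UQCRH had the highest complex III level per kilobase at a mean of 1043 CPM per kb, and its libraries overlapped.

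In complex IV, COX7C had the highest level per kilobase of all nuclear members, a mean of 2009 CPM per kb. Its 356 and 406 CPM with LINC01432 LNA enclosed the 371 and 386 CPM with control LNA. COX5B had 130.1 and 156 CPM with LINC01432 LNA, against 112 and 124 CPM with control LNA, and COX5A had 415 and 455 CPM, against 386 and 393 CPM. Their log2 fold changes were 0.28 (adjusted p of 0.0954) and 0.16 (adjusted p of 0.262), and in both genes LINC01432 LNA library 2 was the higher of the pair. In all 13 complex IV members tested, LINC01432 LNA library 2 exceeded library 1, as in all 10 of complex III. Control LNA library 1 exceeded library 2 in only 1 of the 13 and in 4 of the 10.

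In complex V, the catalytic subunit ATP5F1B had 1454 and 1721 CPM with LINC01432 LNA, against 1352 and 1409 CPM with control LNA, the highest CPM of all nuclear members, with a log2 fold change of 0.20 (adjusted p of 0.232). Of 4 peripheral stalk subunits, which hold the catalytic head in place, 3 had both LINC01432 LNA libraries below both controls, and the median was -0.13. Of all genes tested, 54.1% had groups apart in either direction. The stalk genes had a median GC content of 46.0%, and all genes under 50% GC had a median of -0.08. After the GC correction the stalk median was -0.07. ATP5PF had 52.5 and 54.8 CPM with LINC01432 LNA, against 61.7 and 63.0 CPM with control LNA, a log2 fold change of -0.22 (adjusted p of 0.106). ATP5F1D, the delta subunit of the central stalk, had 358 and 427 CPM with LINC01432 LNA, against 305 and 329 CPM with control LNA. Its log2 fold change of 0.31 (adjusted p of 0.0620) turned to -0.31 (adjusted p of 0.0184) after the GC correction. ATP5F1D has the highest GC content of the nuclear members tested, 67.6%.

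GC content moved with the log2 fold changes of the nuclear members. The 8 members tested with at least 60% GC had a median log2 fold change of 0.29, with 3 higher and 0 lower (37.5% called, against 31.7% of all genes in that GC class, 738 higher and 16 lower of 2375). Those at 50 to 60% had 0 higher and 2 lower of 28 with a median of 0.06. That is 7.14% called, against 9.35% of all genes in that class, 378 higher and 148 lower of 5626. Those under 50% had no call among 47 with a median of -0.04. Of all genes in that class 9.61% were called, 235 higher and 636 lower of 9059. All genes tested had medians of 0.33 at 60% GC or above and -0.08 under 50%, so the members followed the same trend. Across the 83 members, which share the same 4 libraries and so are not independent, GC content and log2 fold change had a Pearson correlation of 0.52 and a Spearman correlation of 0.53, against 0.37 and 0.39 across 17060 genes. The 3 genes that rose had 64.8% (NDUFS7), 65.0% (NDUFB7) and 61.6% (NDUFS8) GC, and SDHA had 52.4%. After the GC correction 6 nuclear members were called, NDUFS7, NDUFS8 and NDUFC1 higher and SDHA, NDUFV3 and ATP5F1D lower. All genes then had 889 higher and 966 lower, against 1401 higher and 817 lower without it. NDUFS7 and NDUFB7 also lie on chromosome 19, whose 10 members tested had a median of 0.23 and a median GC of 60.3%, and a median of -0.04 after the correction. Whether the GC trend arose in the cells or in library preparation was not tested.

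**Figure D4:**
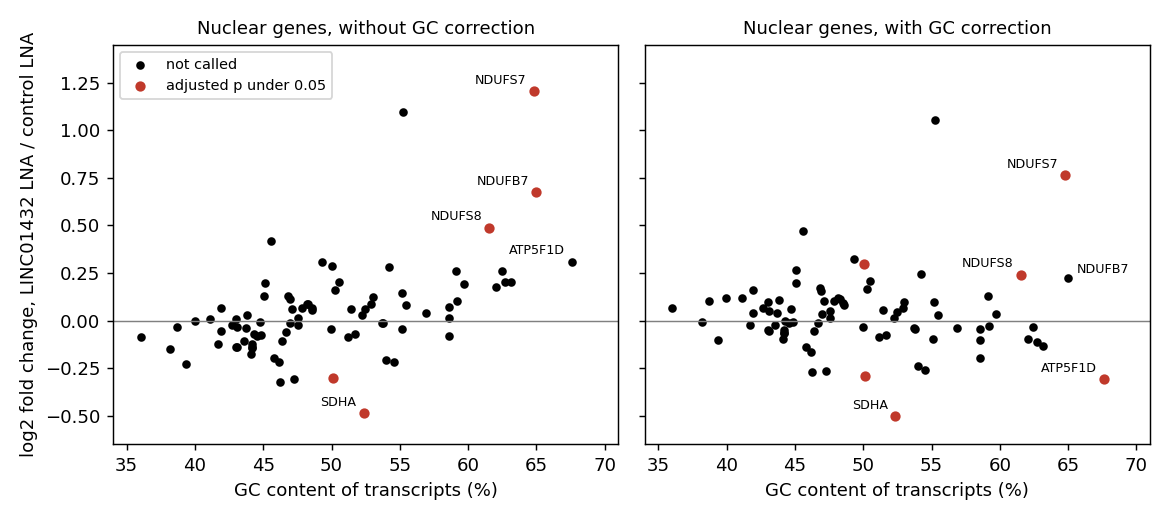
The log2 fold change of each of the 83 nuclear members against the GC content of its transcripts, without (left) and with (right) the GC correction, with 1 point per gene and red for an adjusted p under 0.05. NDUFS7 moves from 1.20 to 0.76, NDUFB7 from 0.67 to 0.22 and ATP5F1D from 0.31 to -0.31, whereas SDHA stays near -0.50.

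The line expressed the common isoforms of complex IV and almost none of the tissue-restricted ones. COX4I2 and COX6A2, isoforms of lung and of heart and muscle, had 0 counts in all 4 libraries, where 3 counts correspond to 0.103 to 0.140 CPM, a limit that covers counting error only. Their common partners COX4I1 and COX6A1 had 5030 and 7364 counts and 1117 and 1716 counts with LINC01432 LNA, against 7039 and 6237 counts and 1627 and 1446 counts with control LNA. COX6B2, COX7A1, COX7B2 and COX8C had between 0 and 5 counts in each library, so that no difference between the groups was detectable at this depth. NDUFA4L2, known as a hypoxia-induced relative of NDUFA4, had 4.42 and 5.06 CPM with LINC01432 LNA, against 3.70 and 4.595 CPM with control LNA, and the groups overlapped (log2 fold change 0.20, and -0.14 after the GC correction). NDUFA4 had 59.3 and 67.2 CPM with LINC01432 LNA, against 63.1 and 63.8 CPM with control LNA.

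Some members are limited by shared sequence or overlap. A pseudogene held more counts than its parent for 1 member, NDUFV2, which had 83 and 89 counts with LINC01432 LNA, against 90 and 59 counts with control LNA. NDUFV2P1 had 332 and 312 counts with LINC01432 LNA, against 419 and 371 counts with control LNA. The value of NDUFV2, a core subunit of complex I, is therefore uncertain, and its mean of 4.30 CPM per kb was far below the 318 CPM per kb of NDUFV1. COX6A1P2 held most of the 30.5 counts per 100 found on copies of COX6A1. UQCRHL, a retrocopy of UQCRH counted among the complex III members, had 1325 and 1797 counts with LINC01432 LNA, against 1706 and 1587 counts with control LNA. UQCRH had 5648 and 7697 counts with LINC01432 LNA, against 8218 and 7139 counts with control LNA. NDUFA7 and NDUFA13 also had few counts, and their exons overlap other genes on 33.5% and 21.0% of their bases. NDUFA7 had 25 and 14 counts with LINC01432 LNA, against 11 and 10 counts with control LNA. The fitted ratio of 2.14 for NDUFA7 did not pass the test, with an SE of 0.46 on the log2 scale and an adjusted p of 0.159. Among the 67 members tested with at most 20% overlap, 2 rose and 2 fell (5.97% called, against 11.9% of all genes tested).

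The factors that build the complexes were described beside the subunits. All 20 complex I assembly factors were tested. DMAC1 and TMEM70 rose and COA1 fell, and the median of the 20 was -0.09 (15.0% called, against 11.9% of all genes). DMAC1 had 51.4 and 68.1 CPM with LINC01432 LNA, against 39.7 and 44.2 CPM with control LNA (log2 fold change 0.52), and TMEM70, which also serves complex V, had 20.9 and 21.6 CPM, against 14.9 and 16.3 CPM (0.45). COA1 had 41.5 and 41.1 CPM with LINC01432 LNA, against 54.6 and 55.8 CPM with control LNA (-0.42). Of 35 factors of complexes II to V tested, 4 were called higher and 1 lower (14.3%, against 11.9% of all genes), and their median was -0.07. TACO1, a translational activator of the MT-CO1 mRNA, had 8.74 and 9.61 CPM with LINC01432 LNA, against 3.08 and 4.03 CPM with control LNA. Its log2 fold change of 1.38 (SE 0.16) had an adjusted p of 0.00031 by edgeR's quasi-likelihood test and was 1.33 after the GC correction, whereas MT-CO1 itself had 0.17 and did not pass. CMC1, a complex IV factor, was at 0.63 and LYRM7, which serves complex III, at -0.50. SCO2, a copper factor of complex IV, was at 1.79 from 0.512 and 1.03 CPM with LINC01432 LNA, against 0.274 and 0.163 CPM with control LNA, and lost the call after the GC correction (1.26, adjusted p of 0.158). Another annotated SCO2 entry on the same strand covers 100% of its exons, so its counts are uncertain. Without control LNA library 1 the calls for DMAC1, TMEM70, COA1, CMC1 and SCO2 were lost (log2 fold changes 0.42, 0.37, -0.45, 0.57 and 2.21), without control LNA library 2 those for TMEM70, COA1, CMC1, LYRM7 and SCO2 (0.50, -0.42, 0.66, -0.45 and 1.48), and without LINC01432 LNA library 2 that for SCO2 (1.17).

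Genes that carry electrons, feed the chain or copy and read mitochondrial DNA were called at shares between 5.56% and 15.4% by list, against 11.9% of all genes. Of 14 genes of cytochrome c and coenzyme Q synthesis, 1 rose and 1 fell (14.3%). COQ4 had 92.6 and 98.0 CPM with LINC01432 LNA, against 71.4 and 72.2 CPM with control LNA (0.41). PDSS2, which helps make the coenzyme Q tail, was at -0.37 and lost the call after the GC correction (-0.29, adjusted p of 0.0881). Of 14 genes of the tricarboxylic acid cycle, which supplies NADH and succinate, only OGDH was called, at -0.29. Of 16 genes of mitochondrial DNA copying and transcription, 1 rose. POLRMT, the mitochondrial RNA polymerase, had 238 and 281 CPM with LINC01432 LNA, against 167 and 180.3 CPM with control LNA, a log2 fold change of 0.58 (SE 0.09). With 65.1% GC, POLRMT stood at 0.11 (adjusted p of 0.338) after the GC correction and was no longer called. FASTK (0.36), 1 of 18 genes of mitochondrial RNA processing and decay, and ESRRA (0.41) and HCFC1 (0.34), 2 of 13 regulators tested, also rose and lost the call after the correction (0.03, -0.01 and 0.13). Without control LNA library 1 the calls for POLRMT, COQ4, PDSS2, OGDH, FASTK, ESRRA and HCFC1 were lost (0.51, 0.38, -0.42, -0.30, 0.34, 0.33 and 0.28). Without control LNA library 2 those same calls were lost except that for POLRMT (0.41, -0.35, -0.30, 0.35, 0.46 and 0.37, in the same order).

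Of 77 tested proteins of the mitochondrial ribosome, which translates the 13 mitochondrial mRNAs, 14 were called higher and 4 lower. That is 23.4% called, against 11.9% of all genes (7.5% of all genes higher and 4.37% lower), and their median on the log2 scale was 0.06. MRPL57 had 38.3 and 44.3 CPM with LINC01432 LNA, against 19.6 and 22.9 CPM with control LNA (log2 fold change 0.96, adjusted p of 0.000221 by edgeR's quasi-likelihood test), and 0.99 after the GC correction. MRPS25 had 23.8 and 26.8 CPM with LINC01432 LNA, against 15.6 and 16.3 CPM with control LNA (0.67), and MRPL55 had 65.3 and 87.4 CPM, against 42.2 and 47.2 CPM (0.77). MRPL12 had the highest log2 fold change, 3.19, from 37.8 and 49.9 CPM with LINC01432 LNA, against 3.60 and 6.14 CPM with control LNA, but other genes overlap 68.2% of its exons. After the GC correction the calls for MRPS24, MRPL28, MRPS26, MRPL38, MRPL30 and MRPL42 were lost, and MRPL41, at 0.51 before it, was called lower at -0.39. Of 24 mitochondrial ribosomal RNAs and tRNAs, only 6 had enough counts to be tested, and 2 fell (33.3% called, against 11.9% of all genes). MT-TC had 0.791 and 0.593 CPM with LINC01432 LNA, against 2.74 and 1.79 CPM with control LNA (-1.73), and MT-TN had 0.372 and 0.0395 CPM, against 1.17 and 0.935 CPM (-2.42). The MT-TN value in LINC01432 LNA library 2 lay below the 0.119 CPM that 3 counts correspond to there. Both tRNA calls were lost without control LNA library 1 (-1.39 and -2.25).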

How the data were processed

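Gene-level counts were deposited by the authors as 1 table for 2 LINC01432 LNA and 2 control LNA libraries of RPMI 8226 cells. The submitters' processing notes name STAR 2.7.11b, featureCounts 2.0.8 and Salmon 1.10.0 with GRCh38. Neither the strand setting nor the annotation release is given in the sources used here. The deposited counts are whole numbers that sum to 20873393 to 29161298 per library. Genes were named from GENCODE 29 and gene name tables (61481 of 78932 IDs had a symbol). Genes passing edgeR's filterByExpr were tested with edgeR 4.0.16 (TMM scaling, quasi-likelihood F test, group as the single term, Benjamini-Hochberg adjustment over all 18680 genes, threshold 0.05), and the method was tested on simulated data. CPM used TMM-scaled library sizes. Levels between genes were divided by the coding length of the principal transcript, although reads in untranslated regions also count. The GC correction used a lowess trend (span 0.3) on GC content, fitted in each library to each gene's log2 CPM minus its mean over the libraries. The trend entered the edgeR fit as a scaling term for each gene and library. DESeq2 1.42.0 and limma 3.58.1 were alternatives. Sums and ratios were compared with exact permutation tests.

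Members, lists and tests were chosen with earlier results of these data known. Genes were named by rule: the target, every called member, every mitochondrial member, in each complex the nuclear member with the highest level per kilobase and the 2 with the smallest p-values, the tissue-restricted isoforms, and up to 4 called genes per other list. Other genes were named after their values were seen.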

Additional observations from a re-analysis of the deposited data

How the results depend on the processing

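The number of genes called moved most with single libraries. It was 2218 over all genes, and 766 to 5228 with 1 library left out. For the nuclear members it was 5, and 2 to 31 with 1 library left out, and for the mitochondrial members 0, and 0 to 11. In these fits the lone library of a group is assumed to vary like the other group. The median log2 fold change with 1 library left out ran from -0.11 to 0.10 for the nuclear and from -0.27 to 0.18 for the mitochondrial members. Keeping low-count genes gave 1 mitochondrial call. Leaving out a LINC01432 LNA library turned the direction of 9 mitochondrial genes with a call in the turned direction: MT-ATP6 (-0.28 to 0.34), MT-CO2 (-0.20 to 0.18), MT-CYB (-0.27 to 0.24), MT-ND1 (-0.30 to 0.24), MT-ND2 (-0.34 to 0.16), MT-ND4 (-0.21 to 0.29), MT-ND4L (-0.32 to 0.80), MT-ND5 (-0.43 to 0.12) and MT-ND6 (-0.50 to 0.18). MT-CO3 also turned, without a call, to -0.09 without LINC01432 LNA library 2, against 0.10 without library 1. With the GC correction ATP5F1D reversed to -0.31 and ESRRA to -0.012, and with GC correction and block to -0.31 and -0.017. With either, CYC1 turned to -0.11 and NDUFA4L2 to -0.14, neither called.

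Libraries share replicate numbers, but only as names: with the number as a block, 3862 genes, 12 nuclear members and 1 mitochondrial member were called, and with block and GC correction 3703, 15 and 1. The deviations of same-numbered libraries had a correlation of 0.13 over all genes tested and 0.35 over the 5284 with a mean log2 CPM above 5. The genome ratio (main difference -0.02) and the mitochondrial share kept within 1 SD of their spread between libraries under all their alternatives, among them the exon union length, which was added after seeing the data (-0.07). Other scalings, DESeq2 and limma-voom called 4 to 6 nuclear and 0 mitochondrial members. With 2 libraries a group, small differences were not detectable.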
